A study of Rattus norvegicus with 16 samples.

Results

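Heterotrimeric G protein subunits, the RGS proteins that switch them off, adenylyl cyclases and cyclic nucleotide phosphodiesterases were followed in the dentate gyrus of rats around passive avoidance training, a task in which an animal learns to withhold a response that brought an aversive event. The members were all probe sets with a single annotated gene symbol of the Gna, Gnb, Gng, Rgs, Adcy or Pde families, selected by symbol. There were 71 such probe sets of 47 genes, out of 8740 probe sets on the array and 4736 genes with a single-symbol probe set. Of these, 57 probe sets of 37 genes were bright enough to be tested, and 14 probe sets were not. Total RNA was measured on 16 Affymetrix RGU34A arrays in 7 groups. The naive group and the 6 h group had 3 arrays each, and the groups labelled 0, 2, 3, 12 and 24 h had 2 each. All labels, those of the naive arrays too, speak of rats trained in passive avoidance. In this account naive means untrained, and the 13 arrays with an hour are called trained, although no label states that the hours run from training. The sources used here give no strain, sex, age or number of animals per array. They also do not state that replicates are different animals, and the p-values therefore cover the spread between these samples alone, which may be technical.

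A heterotrimeric G protein carries the signal of a cell-surface receptor inward. The activated receptor makes the alpha subunit exchange GDP for GTP, alpha and the beta-gamma pair act on their targets, and RGS proteins speed up the hydrolysis of GTP that ends the signal. Gs alpha stimulates adenylyl cyclase, Gi alpha inhibits it, and the cyclic AMP that is formed activates protein kinase A until phosphodiesterases break it down. In the hippocampus this cascade is known for its part in long-lasting synaptic plasticity and in the formation of aversive memories, in part through CREB, a transcription factor that binds the cyclic AMP response element (CRE).

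None of the 57 tested probe sets passed an adjusted p of 0.05 in the tests over the 7 groups, over the 6 trained times, of trained against naive, or of any single hour against naive. The clearest patterns among the members, each short of that threshold, were in genes of the alpha and beta subunits. Gnai1, an inhibitory alpha subunit, read lower on all 13 trained arrays than on all 3 naive arrays. Gnao1, the main alpha subunit of Go in brain, read higher on both 2 h arrays than on the 14 others, with both of its probe sets. Gnb5, a beta subunit that pairs with RGS proteins, was like Gnai1 lower on all 13 trained arrays with 1 of its 2 probe sets. Gna12 and Pde1b were lower on average in trained rats.

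The promoters of Gnao1, Gnai1 and Gnb5 are shown because the members include the enzymes that make and break down cyclic AMP. That of Gna12 was searched but is not printed, and no promoter was available for Pde1b. Each line gives the 250 bases upstream of the transcription start in RefSeq, 5′ to 3′ on the gene's own strand, build GRCr8, with Gnao1 at chr19:11198438-11198687 on the minus strand, Gnai1 at chr4:17705811-17706060 on the plus strand and Gnb5 at chr8:84956379-84956628 on the plus strand. Capitals mark the CRE (TGACGTCA) and its shorter core (TGACG, or CGTCA on the other strand).
Gnao1: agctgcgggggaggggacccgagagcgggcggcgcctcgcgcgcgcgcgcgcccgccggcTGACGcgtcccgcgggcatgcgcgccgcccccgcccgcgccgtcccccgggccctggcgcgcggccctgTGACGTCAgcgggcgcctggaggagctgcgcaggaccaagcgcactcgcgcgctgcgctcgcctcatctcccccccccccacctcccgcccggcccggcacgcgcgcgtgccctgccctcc
Gnai1: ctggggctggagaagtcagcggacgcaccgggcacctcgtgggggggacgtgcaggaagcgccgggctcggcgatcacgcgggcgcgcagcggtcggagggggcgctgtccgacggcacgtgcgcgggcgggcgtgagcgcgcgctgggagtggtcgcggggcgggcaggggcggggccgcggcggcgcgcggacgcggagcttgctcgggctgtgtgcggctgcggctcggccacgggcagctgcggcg
Gnb5: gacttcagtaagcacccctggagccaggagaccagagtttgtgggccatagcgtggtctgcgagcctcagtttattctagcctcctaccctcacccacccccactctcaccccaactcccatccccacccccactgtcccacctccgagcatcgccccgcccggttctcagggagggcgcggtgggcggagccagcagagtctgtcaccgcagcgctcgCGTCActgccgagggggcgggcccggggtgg
The full CRE, which contains the shorter core on each strand, was found in the Gnao1 window, where its first base lies 121 bases upstream of the start. It occurred in 1 of the 45 windows that RefSeq gives for 34 of the member genes, and in 531 of all 33469 windows (1.59%). The shorter core, searched on both strands, occurred in 10 of the 45 member windows, of 8 genes (Gnao1, Gnb2, Gnb5, Gng5, Pde4a, Pde4d, Rgs1 and Rgs4), and in 18.2% of all windows. An EGR site (GCGTGGGCG, either strand) occurred in the window of Gng7 alone among the members, and in 0.478% of all windows. None of these motifs was in the Gnai1 window or in that of Gna12 (chr12:18919379-18919628, plus strand).

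Levels below are scaled intensities, the deposited linear intensity of a probe set after all arrays were brought to the same trimmed mean (105). The lowest level given is 5.05, the 20th percentile of all values, to which smaller values were raised. Differences are on the log2 scale, trained or hour minus naive, with the standard error (SE) of a limma fit over all 7 groups and a p adjusted over all 6220 tested probe sets (Benjamini-Hochberg).

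The arrays differed, in part in ways that run with the groups. Before scaling, the trimmed mean of an array lay between 33.3 and 170, with the naive arrays (113 to 143) inside that range. Correlations between arrays lay between 0.908 and 0.973. The 3′/5′ ratio of the beta-actin control probe sets, which is higher where RNA is degraded, was 1.51 to 2.80 on the trained arrays and 1.49 to 1.70 on the naive arrays, and 12 of 13 trained arrays were above all naive arrays. Ttr, which encodes transthyretin and is abundant in choroid plexus, had a level of 70.4 to 3982 on the trained arrays and 1786 to 3939 on the naive arrays, and 10 of 13 trained arrays were below all naive arrays. Of 16 tested probe sets of choroid plexus, ependyma and meninges markers, 13 averaged lower in trained than in naive rats, 10 of them at an unadjusted p under 0.05 and none at an adjusted one, with a median difference of -1.42. Their summed level ran from 498 on a 24 h array to 5399.9 on a 6 h array among trained rats, and from 2689 to 6316 on the naive arrays. All 11 tested oligodendrocyte probe sets averaged lower in trained rats, with a median difference of -0.35. At 24 h that median was -0.95, with 10 of the 11 lower at an unadjusted p under 0.05 and none at an adjusted one, and the summed level of these markers was 2614 to 2874 on the 24 h arrays and 4170 to 5691 on the naive arrays. Of the listed granule neuron markers, 5 genes were tested and their summed level was 1032 to 1309 on the trained arrays and 1038 to 1229 on the naive arrays. Tdo2 was not bright enough to be tested. The medians of the pyramidal neuron, interneuron, striatum, thalamus, astrocyte, microglia, endothelium and blood lists ran from -0.15 (microglia) to 0.14 (blood), with 1 interneuron and 1 astrocyte probe set lower at an unadjusted p under 0.05. Vip, Drd2, Csf1r, Itgam and Vwf were not bright enough to be tested. Of the retina and pineal list 1 probe set was tested, and it differed by -0.50 over trained times. The part of these markers in the results below was not tested beyond the fits with Ttr as a covariate. The actin ratios at 12 h (2.40 and 2.80) and the Ttr levels at 24 h (73.0 and 73.7) lay outside the naive range. At such hours the covariate and the group cannot be told apart. The fits with a covariate then lean on its relation to the level on the other arrays. In tissue RNA, fewer cells of a type and less RNA per cell cannot be told apart.

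**Figure D1:**
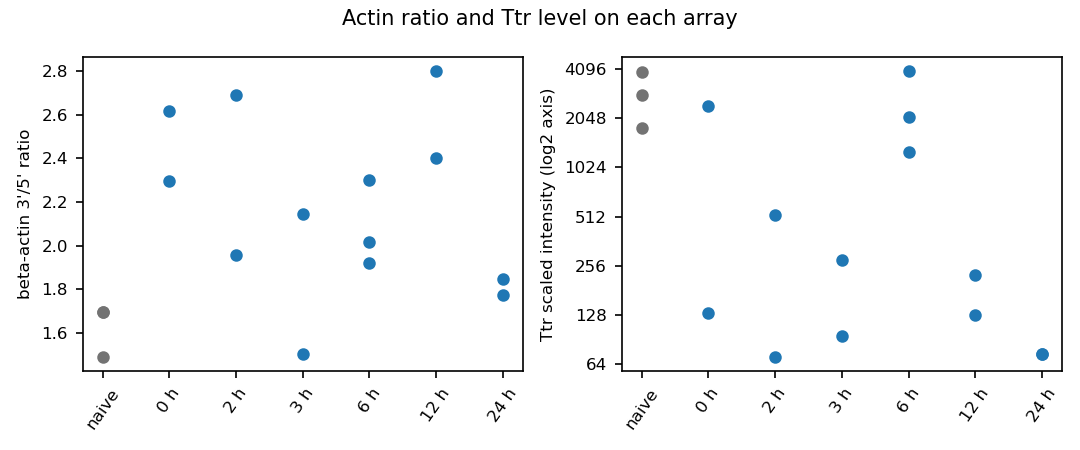
The beta-actin 3′/5′ ratio (left) and the scaled Ttr intensity on a log2 axis (right) of each array, as points, in the naive group and at each hour. The actin ratio reached 2.80 at 12 h, against 1.49 to 1.70 on the naive arrays, and the Ttr level at 24 h was 73.0 and 73.7.

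The inhibitory alpha subunit Gnai1 lowers cyclic AMP by restraining adenylyl cyclase. Its only single-symbol probe set (M17527_at) read 179, 148 and 158 on the naive arrays, 91.3 and 123 at 0 h, 79.8 and 63.6 at 2 h, 133 and 63.7 at 3 h, 51.05, 31.7 and 131 at 6 h, 47.7 and 74.7 at 12 h, and 90.7 and 70.8 at 24 h. No trained array reached the lowest naive array, and the 6 h arrays spread most, with replicate 3 near the top of the trained range and replicate 2 at its bottom. The mean over trained times was 1.08 lower on the log2 scale, a 2.11-fold lower level (SE 0.31, adjusted p = 0.744), and the F test over the 7 groups had an adjusted p of 0.478. Of the 57 members, 2 (3.51%) read lower on every trained array than on every naive array, Gnai1 and Gnb5, where 12 of all 6220 tested probe sets did (0.193%); no member was above naive on every trained array, and 0.0643% of all tested probe sets were.

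By hour, Gnai1 differed from naive most at 6 h (-1.43, SE 0.40, adjusted p = 0.373) and 12 h (-1.43, SE 0.45, adjusted p = 0.342). It differed from naive by -1.18 at 2 h (adjusted p = 0.563), by -1.01 at 24 h (adjusted p = 1.000), by -0.81 at 3 h and by -0.61 at 0 h (adjusted p = 0.998 for each of these hours). The hours did not differ among themselves beyond their spread (F test over the 6 trained times, adjusted p = 0.734). Without 6 h replicate 3, the difference at 6 h was -2.00 with an adjusted p of 0.0158. This was the only call of a member under any setting tried, and 29 of the 6200 probe sets tested were then called. Without 6 h replicate 2 the difference at 6 h was -0.98. Replicate 2 correlated least with the other arrays (mean r 0.918). It also had the highest 3′/5′ ratio of the Gapdh controls (2.04). With the beta-actin ratio as a covariate the mean difference over trained times was -0.56 (adjusted p = 0.993), and with Ttr as the covariate it was -1.07 (adjusted p = 1). The actin covariate also moved the difference at 12 h to -0.56 and that at 2 h to -0.53.

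Gnao1 encodes the alpha subunit of Go, which in neurons inhibits calcium channels through its beta-gamma partner. Probe set M17526_at read 188, 199.9 and 145 on the naive arrays, 166 and 177 at 0 h, 252 and 344 at 2 h, 169 and 162 at 3 h, 138, 103 and 137 at 6 h, 124 and 131 at 12 h, and 165 and 159 at 24 h. Its companion M17526_g_at, named for the same sequence entry and therefore no independent measure, read 502, 519 and 435 on the naive arrays, 538 and 511 at 0 h, 717 and 1076 at 2 h, 511 and 423 at 3 h, 463, 582 and 448 at 6 h, 513 and 448 at 12 h, and 472 and 484 at 24 h. Both 2 h arrays were above the other 14 arrays with either probe set, and replicate 2 was the higher of them.

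At 2 h the difference from naive was 0.74 for M17526_at (SE 0.22, 1.67-fold, adjusted p = 0.411) and 0.86 for M17526_g_at (SE 0.21, 1.82-fold, adjusted p = 0.236). The F test over the 6 trained times, which leaves the naive arrays out of the comparison, gave adjusted p-values of 0.226 and 0.289 for these probe sets, and the F test over the 7 groups gave 0.246 and 0.339. At 6 h M17526_at was below all naive arrays (-0.50, SE 0.20, adjusted p = 0.462), as it was at 12 h (-0.47, SE 0.22, adjusted p = 0.491), while M17526_g_at overlapped naive at both hours and had a difference of 0.03 at 6 h. With Ttr as the covariate the 12 h difference of M17526_at was -0.30. Leaving out 2 h replicate 2 lowered the difference at 2 h to 0.52 and 0.57. With Ttr as the covariate it was 0.90 and 1.04, and with the actin ratio 0.75 and 0.74.

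**Figure D2:**
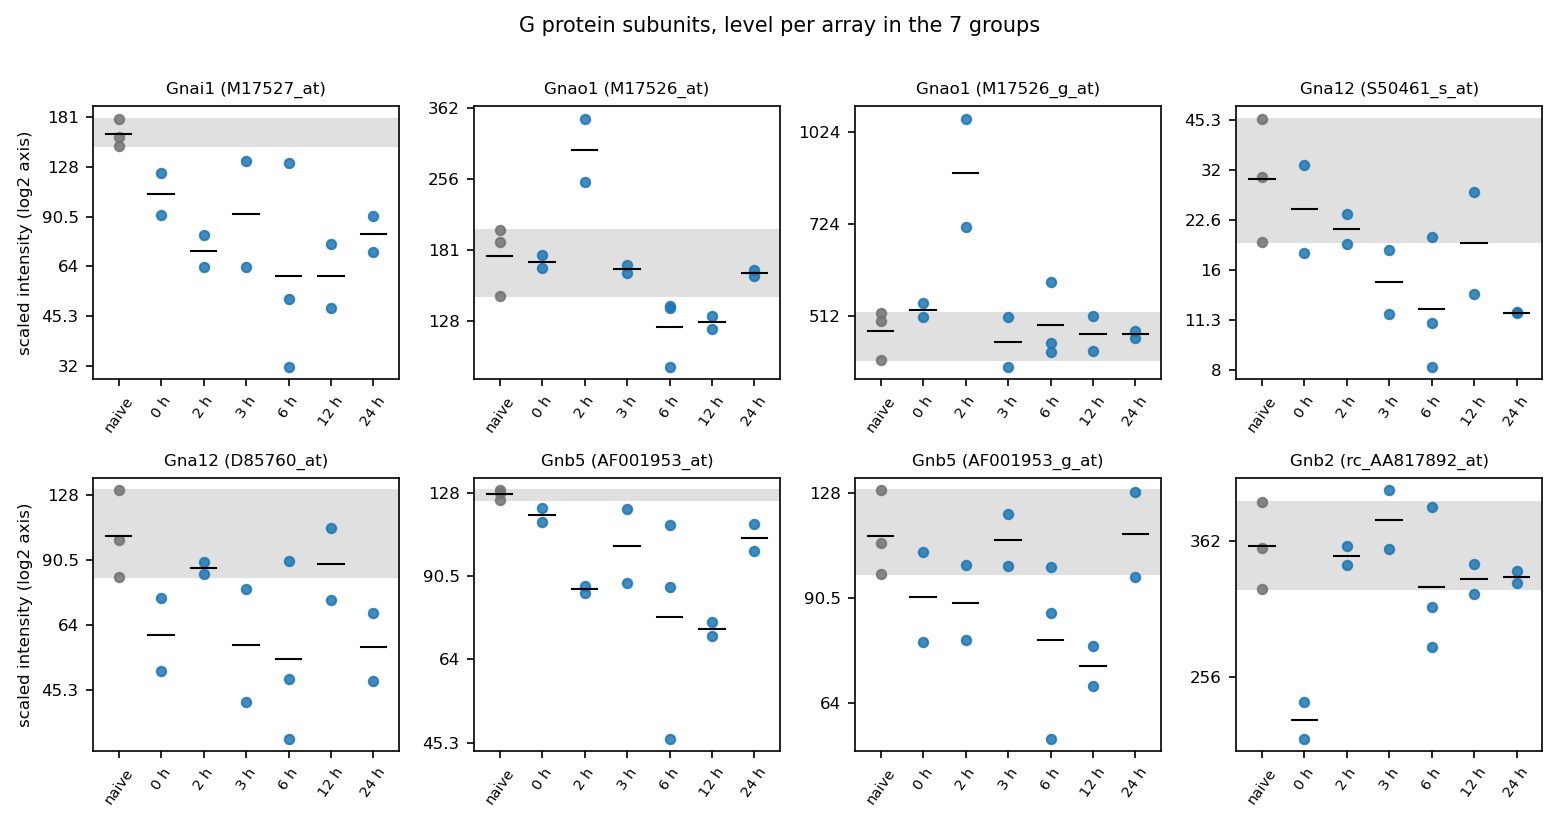
Scaled intensity (log2 axis) of 8 probe sets of G protein subunits on each array, as points, in the naive group (grey) and at each hour (blue); bars are group means on the log2 scale and the grey band is the range of the naive arrays. Gnai1 and Gnb5 (AF001953_at) lie below the naive band on all 13 trained arrays, and Gnao1 lies above it at 2 h with both probe sets.

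Gna12 is an alpha subunit whose signals act on the cytoskeleton. Probe set S50461_s_at read 30.4, 19.4 and 45.5 on the naive arrays, 33.1 and 17.9 at 0 h, 23.5 and 19.2 at 2 h, 18.3 and 11.8 at 3 h, 20.1, 8.16 and 11.1 at 6 h, 27.5 and 13.6 at 12 h, and 11.9 and 11.8 at 24 h. Probe set D85760_at read 101, 82.9 and 132 on the naive arrays, 74.1 and 50.01 at 0 h, 89.5 and 84.3 at 2 h, 77.7 and 42.5 at 3 h, 90.4, 34.9 and 48.1 at 6 h, 107 and 73.4 at 12 h, and 68.2 and 47.4 at 24 h. With each, 12 of 13 trained arrays were below the naive mean and 9 were below all naive arrays. The mean over trained times was lower by 0.85 (SE 0.34, adjusted p = 0.922) and by 0.65 (SE 0.27, adjusted p = 0.922), and the 2 probe sets had the same sign at all 6 hours. The differences were -1.33 and -0.86 at 24 h (adjusted p = 0.964 and 1.000), -1.30 and -0.95 at 6 h (adjusted p = 0.416 and 0.422) and -1.03 and -0.84 at 3 h (adjusted p = 0.998 for both). With Ttr as the covariate they were -0.43 and 0.03 at 24 h, so the direction of D85760_at turned, and -0.32 and -0.15 at 3 h. Over trained times they were -0.28 and -0.09 with Ttr and -0.49 and -0.24 with the actin ratio. The actin ratio also moved the 6 h difference of D85760_at to -0.60. Single arrays moved them as well: D85760_at at 3 h was -1.28 without 3 h replicate 1 and -0.41 without 3 h replicate 2, and S50461_s_at over trained times was -0.54 without naive replicate 3.

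The stimulatory alpha subunit Gnas was covered by 4 probe sets, which may read different transcripts because the locus makes several that overlap. Probe set rc_AI237836_g_at read 2548, 3058 and 3195 on the naive arrays, 3227 and 2978 at 0 h, 4237 and 4169 at 2 h, 2476 and 3549 at 3 h, 4278, 3519.8 and 2574 at 6 h, 3808 and 3087 at 12 h, and 2991 and 2644 at 24 h. Both 2 h arrays were above all naive arrays with this probe set (0.53, SE 0.23, adjusted p = 0.628), with rc_AI237836_at (0.39, SE 0.22) and with X84047cds_at (0.40, SE 0.27), while L10326_at was near naive (0.03, SE 0.33). With quantile normalization the 2 h difference of rc_AI237836_g_at was 0.18. Over all trained times the 4 probe sets ranged from -0.09 to 0.17.

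The remaining alpha subunits tested were Gnai2, Gnaz, Gna15 and Gnal. Gnai2, an inhibitory subunit like Gnai1, had differences over trained times of -0.07, 0.04 and 0.14 with its 3 probe sets (SE 0.18, 0.27 and 0.23). Gnaz, which belongs to the Gi class but resists pertussis toxin, had 2 probe sets of opposite sign: U77483mRNA_s_at was above the naive mean on 12 of 13 trained arrays (0.25, SE 0.18), and J03773_s_at, which was dim at 6.88 to 22.8, was below it on average (-0.52, SE 0.36). Gna15, which couples receptors to phospholipase C beta, differed by 0.08 (SE 0.21). Gnal, the olfactory and striatal relative of Gs, ranged from 5.05 to 32.5 and differed by -0.40 (SE 0.43).

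Among the beta subunits, Gnb5 stands apart in biology because it binds RGS proteins of the R7 family instead of a conventional gamma subunit. Probe set AF001953_at read 128, 129 and 124 on the naive arrays, 120.02 and 113 at 0 h, 86.8 and 84.4 at 2 h, 119.8 and 87.97 at 3 h, 86.6, 46.03 and 112 at 6 h, 74.9 and 70.5 at 12 h, and 112 and 100.2 at 24 h. The naive arrays lay close together and all 13 trained arrays were below them, by least at 0 h and by most on 6 h replicate 2. Probe set AF001953_g_at, named for the same entry, read 129, 109 and 98.1 on the naive arrays, 105 and 78.4 at 0 h, 101 and 78.9 at 2 h, 119 and 101 at 3 h, 86.1, 56.96 and 100.2 at 6 h, 77.4 and 67.8 at 12 h, and 128 and 97.2 at 24 h, and overlapped naive on 6 of 13 trained arrays. The mean over trained times was lower by 0.47 (SE 0.21, adjusted p = 0.931) and by 0.29 (SE 0.19, adjusted p = 0.981). At 12 h, where both probe sets were below all naive arrays, the differences were -0.81 (SE 0.29, adjusted p = 0.402) and -0.62 (SE 0.27, adjusted p = 0.479), and at 6 h AF001953_at differed by -0.73 (adjusted p = 0.425), or by -0.37 without 6 h replicate 2. With the actin ratio as a covariate, the differences at 12 h were -0.26 and -0.21, and those of AF001953_at were -0.45 at 6 h and -0.14 over trained times; with Ttr the last was -0.25.

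Gnb2, one of the common beta subunits of brain, read 400.1, 320.4 and 356 on the naive arrays, 219 and 241 at 0 h, 340.4 and 357 at 2 h, 354 and 412 at 3 h, 395, 276 and 306 at 6 h, 342 and 316 at 12 h, and 325 and 336 at 24 h. Both 0 h arrays were below the other 14 arrays (-0.64, SE 0.20, adjusted p = 0.793), and the later hours overlapped naive. Gnb1, the most studied beta subunit, had 3 probe sets whose differences over trained times ran from -0.24 to 0.15; U88324_at varied 4.90-fold between arrays, and its naive arrays alone read 604, 404 and 147. Gnb4 was at or near the lowest level on most arrays, with all arrays of 2 h, 3 h and 24 h and 1 of the naive arrays at 5.05.

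The gamma subunits anchor the beta-gamma pair to the membrane, and all 8 of their probe sets were tested. Gng8, known from olfactory epithelium, gave disagreeing probe sets. L35921_at read 20.1, 8.23 and 10.7 on the naive arrays, 25.4 and 28.5 at 0 h, 13.8 and 43.5 at 2 h, 6.33 and 31.2 at 3 h, 12.7, 36.6 and 17.6 at 6 h, 32.5 and 33.1 at 12 h, and 18.7 and 13.7 at 24 h, and was above the naive mean on 12 of 13 trained arrays. Its difference was 0.83 over trained times (SE 0.45, adjusted p = 0.981) and 1.44 at 12 h (SE 0.64, adjusted p = 0.482). L35921_g_at, from the same entry, read 23.2 to 45.1 over all arrays and differed by -0.12 over trained times (SE 0.21) and 0.13 at 12 h. With the actin ratio as a covariate the 12 h difference of L35921_at was -1.11, so its direction turned. Gng7 (0.12 and -0.20), Gng5 (0.06 and -0.31), Gng10 (-0.01) and Gng11 (-0.36) differed over trained times by less than their SE.

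RGS proteins accelerate GTP hydrolysis by alpha subunits, and 8 of their 10 probe sets were tested, of 7 genes. Rgs8, which acts on Gi and Go class subunits, read 37.1, 43.8 and 61.04 on the naive arrays, 40.2 and 36.7 at 0 h, 38.9 and 39.99 at 2 h, 36.2 and 40.5 at 3 h, 27.6, 34.6 and 22.8 at 6 h, 50.2 and 46.2 at 12 h, and 31.1 and 46.2 at 24 h with AB006013_at. The 3 arrays at 6 h were below all naive arrays, and the difference was -0.73 (SE 0.27, adjusted p = 0.429). Its dimmer probe set rc_AI144709_s_at differed by -0.05 at 6 h (SE 0.65), but had the same sign as AB006013_at at all 6 hours. Rgs12 was above the naive mean on 11 of 13 trained arrays (0.21, SE 0.15), and Rgs14, known in hippocampus from area CA2, on 10 of 13 (0.12, SE 0.20). Rgs4, which ends Gi and Gq signals and is known to respond to neuronal activity, differed by -0.04 (SE 0.24) and ranged from 15.2 to 26.3 over all 16 arrays. Rgs9, the striatal and retinal partner of Gnb5, was dim, with a median of 7.80.

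Adenylyl cyclases turn ATP into cyclic AMP and were covered by 9 probe sets, of which 6 were tested. Adcy3 read 114, 84.8 and 84.9 on the naive arrays, 67.8 and 65.1 at 0 h, 209.97 and 126 at 2 h, 91.6 and 126 at 3 h, 150.2, 83.9 and 65.1 at 6 h, 124 and 101 at 12 h, and 80.7 and 111 at 24 h. Both 2 h arrays were above all naive arrays and both 0 h arrays were below them. The difference was 0.80 at 2 h (SE 0.33, adjusted p = 0.600) and -0.49 at 0 h (SE 0.33, adjusted p = 0.998), and the F test over the 6 trained times had an adjusted p of 0.471. Without 2 h replicate 1 the 2 h difference was 0.43.

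Adcy5, a cyclase that Gi alpha and calcium inhibit, read 64.2, 56.3 and 58.2 on the naive arrays, 10.4 and 56.4 at 0 h, 58.8 and 84.3 at 2 h, 68.4 and 85.6 at 3 h, 95.6, 60.04 and 43.9 at 6 h, 61.6 and 67.2 at 12 h, and 74.95 and 67.8 at 24 h with M96159_at. The low reading of 10.4 on 0 h replicate 1 set the 0 h difference of -1.29 (SE 0.49, adjusted p = 0.908); without that array it was -0.08, and without 0 h replicate 2 it was -2.51. Its other tested probe set, rc_AI044848_s_at, was above naive on average at 0 h. At 2 h it read 7.98 and 5.21 and at 24 h 11.4 and 7.36, below the naive arrays (12.8, 12.8 and 19.5). M96159_at averaged above naive at both of these hours, and the probe sets had the same sign at 12 h alone. Over trained times rc_AI044848_s_at differed by -0.42 and M96159_at by -0.04. Adcy2, which beta-gamma pairs stimulate, read 379.7, 591 and 465 on the naive arrays, 448 and 469 at 0 h, 451 and 526 at 2 h, 526 and 504 at 3 h, 521, 712 and 514 at 6 h, 548 and 696 at 12 h, and 473 and 568 at 24 h. It was above the naive mean on 10 of 13 trained arrays, and its difference of 0.16 (SE 0.16, adjusted p = 0.981) did not exceed the spread. Adcy6, the close relative of Adcy5, differed by -0.73 over trained times (SE 0.50) at levels of 5.05 to 31.1. Adcy8, a calcium-stimulated cyclase of hippocampus, was at the lowest level on 6 of 16 arrays and reached 21.3.

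Phosphodiesterases end cyclic nucleotide signals. Pde1b, which calcium and calmodulin activate, read 188, 108 and 153 on the naive arrays, 109.9 and 77.01 at 0 h, 132 and 87.6 at 2 h, 124 and 68.7 at 3 h, 100.04, 85.3 and 106 at 6 h, 126 and 119 at 12 h, and 131 and 76.1 at 24 h. All 13 trained arrays were below the naive mean and 7 were below all naive arrays. The difference over trained times was -0.53 (SE 0.23, adjusted p = 0.922), and that at 3 h was -0.66 (SE 0.32, adjusted p = 0.998). The 3 h value was -1.09 without 3 h replicate 1 and -0.23 without 3 h replicate 2, and that over trained times was -0.34 without naive replicate 1. With the actin ratio as a covariate the difference over trained times was -0.23, and with the Ttr level -0.37. Pde2a, which cyclic GMP stimulates, read 387, 359.6 and 264 on the naive arrays, 169.9 and 263 at 0 h, 339 and 296 at 2 h, 288 and 413 at 3 h, 278, 199.7 and 277 at 6 h, 264 and 239.6 at 12 h, and 312 and 318 at 24 h. It was below all naive arrays on both 0 h arrays (-0.65, SE 0.25, adjusted p = 0.908), and without 0 h replicate 1 that difference was -0.34.

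The Pde4 family is specific for cyclic AMP and is the target of rolipram. Its probe sets went different ways: Pde4b had 4, from -0.49 (M25350_s_at, SE 0.31) to 0.15 (rc_AA799729_g_at, SE 0.25) over trained times, and the last of these was above all naive arrays at 12 h (0.66, SE 0.36, adjusted p = 0.546). Pde4a had differences of -0.14 and -0.23, Pde4c of 0.49 (SE 0.39) and Pde4d of -0.83 (SE 0.51) with the single probe set tested for each of the last 2 genes. The Pde4c probe set read 44.9, 59.5 and 10.05 on the naive arrays and 21.5 to 63.2 on the trained arrays, so its difference rests on the low naive replicate 3. That of Pde4d was at the lowest level on 3 arrays, all of them trained. Pde6d, a chaperone of prenylated proteins that carries a phosphodiesterase name, differed by -0.11 (SE 0.24), and Pde3a, which cyclic GMP inhibits, by -0.25 (SE 0.31).

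**Figure D3:**
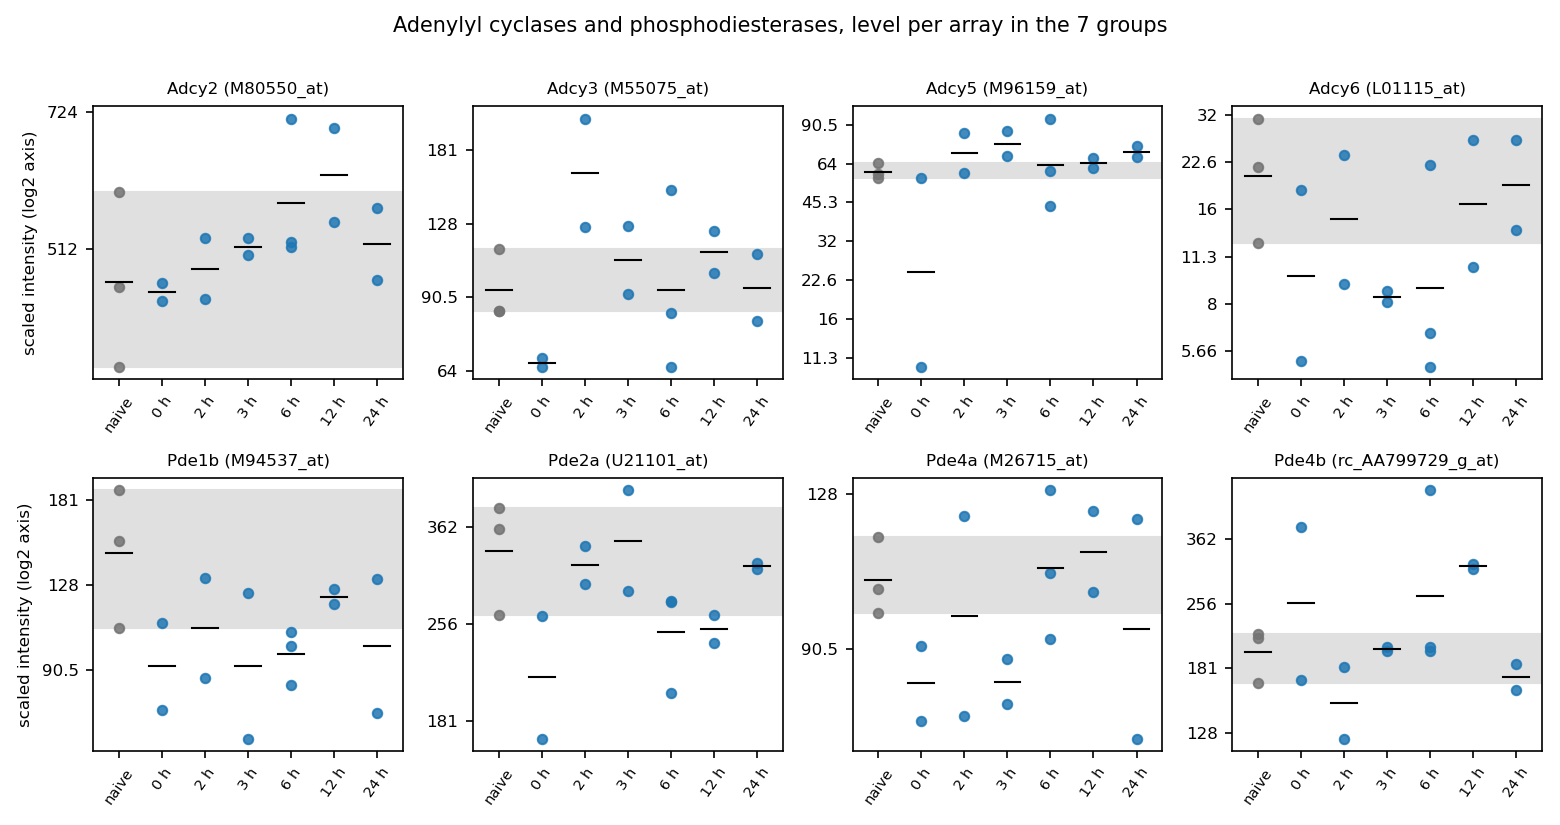
Scaled intensity (log2 axis) of 4 adenylyl cyclases and 4 phosphodiesterases on each array, as points, in the naive group (grey) and at each hour (blue); bars are group means on the log2 scale and the grey band is the range of the naive arrays. Adcy3 is above the band at 2 h and below it at 0 h, and 1 array at 0 h sets the low mean of Adcy5.

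The members were then counted together. Over trained times against naive, 5 of 57 probe sets (8.77%), of Gnai1, Gna12, Gnb5 and Pde1b, had an unadjusted p under 0.05, all lower, against 5.35% of all 6220 tested probe sets in either direction and 3.70% lower. At the adjusted threshold none of the members and none of the 6220 passed (0%). In this comparison 20 probe sets averaged above naive and 37 below, so 35.1% were above, against 47.6% of all tested probe sets, and their median was -0.12, against -0.01 over all. Quantile normalization gave 18 above and 37 below and median centring 22 and 34, while a stricter filter on brightness left 17 above and 19 below with a median of -0.0073. Rgs9, Adcy8 and the Gng5 probe set M95780_at passed the filter through trained arrays alone, which favours a higher reading in trained rats. Rgs9 and Adcy8 were counted above naive over trained times and M95780_at below. Their directions, here and by hour, are therefore no result. No test of these counts was made.

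By hour, 3 members (5.26%) had an unadjusted p under 0.05 at 0 h, against 5% of all tested probe sets, and 5 (8.77%) did at 2 h, against 7.67%. The counts were 1 (1.75%) at 3 h against 4.31%, 6 (10.5%) at 6 h against 9.41%, 5 (8.77%) at 12 h against 10.1%, and 3 (5.26%) at 24 h against 4.44%. The F test over the 7 groups gave 3 members (5.26%) against 10.3%, and that over the 6 trained times 2 (3.51%) against 10.8%. Each of these shares is near or below that of all tested probe sets. No member passed the adjusted threshold at any hour or in either F test, as did 0% of all tested probe sets in each of these comparisons except 2 h, where 1 of 6220 (0.0161%) passed.

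The direction by hour varied. At 0 h 17 members were above naive and 40 below (29.8% above, against 47.3% of all tested probe sets), with a median of -0.27, against -0.02 over all. At 2 h 22 were above and 35 below (38.6%, against 52.7%; median -0.07, against 0.03), and at 3 h 23 and 34 (40.4%, against 41.3%; median -0.07, against -0.07). At 6 h 24 were above and 33 below (42.1%, against 46.8%; median -0.05, against -0.03), at 12 h 31 and 26 (54.4%, against 55.9%; median 0.03, against 0.06), and at 24 h 18 and 39 (31.6%, against 49.5%; median -0.13, against -0.0044). The split turned with median centring at 3 h (32 above, 24 below), 6 h (29 and 27) and 12 h (25 and 31), and with quantile normalization at 12 h (27 and 28); median centring moved the median of all tested probe sets at 3 h to 0.11. It also turned at 3 h without 3 h replicate 1 (30 above, 27 below; median 0.03), and it was even at 12 h without 12 h replicate 1 (27 and 27), at 2 h without naive replicate 1 (28 and 28) and at 6 h with a stricter filter on brightness (18 and 18). The median at 12 h was 0.18 without 12 h replicate 2. These comparisons share the 3 naive arrays. On every array of the hour, 13 members (22.8%) were below all naive arrays at 0 h, against 11.7% of all tested probe sets, 7 (12.3%) at 2 h, against 11.7%, and 9 (15.8%) at 3 h, against 12%. The counts were 6 (10.5%) at 6 h, against 6.56%, 6 (10.5%) at 12 h, against 11.8%, and 14 (24.6%) at 24 h, against 11.8%. No test of these counts was made. The oligodendrocyte markers had a median of -0.95 at 24 h, as given above, and at 0 h the medians of the pyramidal neuron and microglia markers were -0.45 and -0.44; their part in these counts was not tested.

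**Figure D4:**
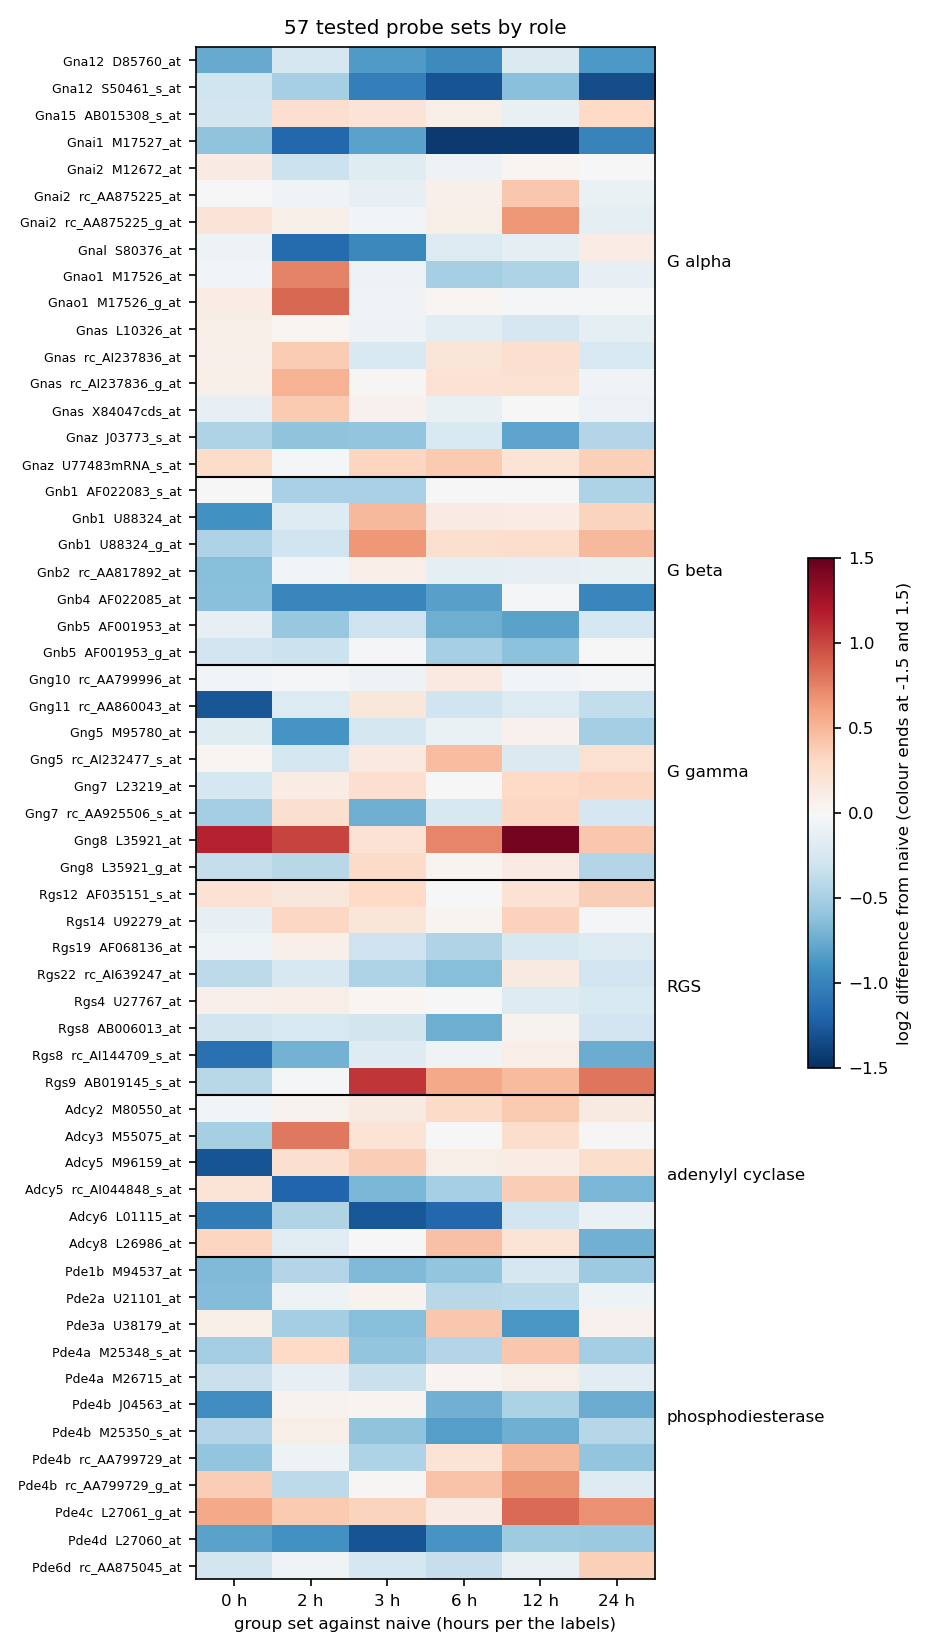
Log2 difference from naive of the 57 tested probe sets (rows, by role) at each hour (columns); blue is lower and red higher than naive, and the colour ends at -1.5 and 1.5. Gnai1 and both Gna12 probe sets are blue at all 6 hours, Gnao1 is red at 2 h, and rows of the same gene often differ in colour.

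By role, the 16 alpha subunit probe sets split 8 above and 8 below naive over trained times (median -0.02), the 7 beta 1 and 6 (median -0.24), the 8 gamma 3 and 5 (median -0.07), the 8 RGS 3 and 5 (median -0.12), the 6 cyclase 3 and 3 (median -0.01), and the 12 phosphodiesterase 2 and 10 (median -0.24). Probe sets of a gene are not independent, and they often disagreed. Of 14 genes with several tested probe sets, 5 had the same sign with all of them over trained times (Adcy5, Gna12, Gnb5, Pde4a and Rgs8), and Gna12 and Rgs8 alone did at all 6 hours.

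**Figure D5:**
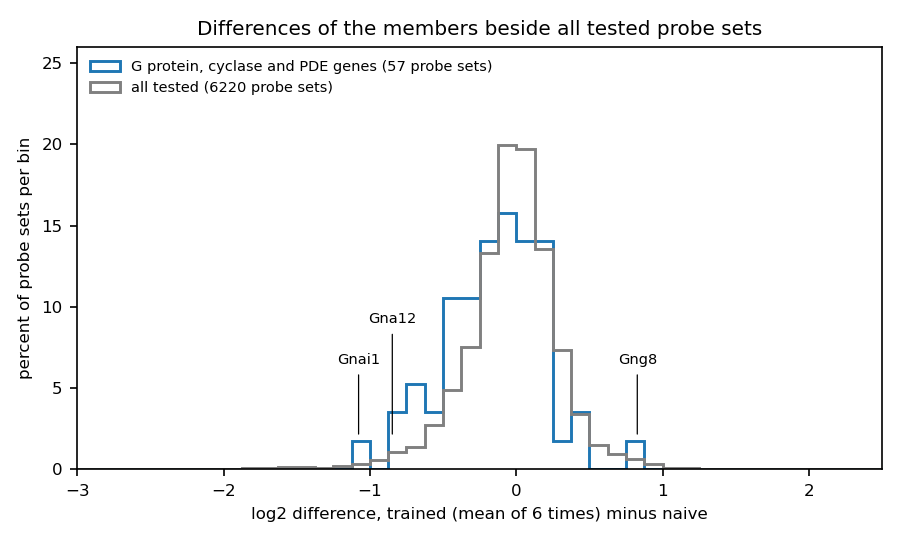
Distribution of the log2 difference, trained minus naive, as percent of probe sets per bin of equal width, for the 57 members (blue) and all 6220 tested probe sets (grey). The members' median is -0.12 and that of all tested probe sets -0.01; Gnai1 and Gna12 mark the low end and Gng8 the high end of the members.

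The pathway around these genes was examined with a list of 78 kinases, anchoring proteins, channels, receptor kinases and effectors, of which 58 genes were on the array and 72 probe sets of 46 genes were tested. Over trained times 37 were above naive and 35 below (median 0.00, against -0.01 over all), 3 were higher and 1 lower at an unadjusted p under 0.05, and none passed the adjusted threshold. Of all 6220 tested probe sets, 1.66% were higher and 3.70% lower at that unadjusted level. The lower one was Itpr1, the receptor through which inositol trisphosphate releases calcium, with U38812_s_at (-1.49, SE 0.48, adjusted p = 0.851). This probe set read 33.7, 39.9 and 41.5 on the naive arrays, 8.21 and 17.8 at 0 h, 40.6 and 26.97 at 2 h, 36.5 and 5.05 at 3 h, 11.4, 5.05 and 18.4 at 6 h, 7.58 and 5.05 at 12 h, and 16.1 and 21.1 at 24 h. The reading was at the lowest level on 3 h, 6 h and 12 h replicate 2. The difference at 12 h was -2.63 (adjusted p = 0.252), and the other Itpr1 probe set, J05510_at, read 337 and 274 at 12 h, against 258, 224 and 389 on the naive arrays.

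Prkaca, the catalytic subunit alpha of protein kinase A, the enzyme that cyclic AMP activates, read 286, 287 and 396 on the naive arrays, 374 and 376 at 0 h, 164 and 178 at 2 h, 291 and 371 at 3 h, 405, 289 and 216 at 6 h, 394 and 356 at 12 h, and 278 and 298 at 24 h with X57986mRNA_s_at. Both 2 h arrays were below the other 14, and the difference was -0.90 (SE 0.25, adjusted p = 0.354); its other probe set, X57986mRNA_r_at, overlapped naive at 2 h, with 55.4 and 82.6 against 50.8, 79.8 and 128 (-0.25, SE 0.37). At the same hour Prkacb, the beta catalytic subunit, differed by -0.51 with rc_AA891881_at (SE 0.19, adjusted p = 0.550) and by -0.31 with D10770_s_at (SE 0.56), and Grk2, a kinase that desensitizes receptors and binds beta-gamma pairs, by -0.73 with M87854_at (SE 0.25, adjusted p = 0.465) and by -0.52 with S48813_s_at (SE 0.34). The regulatory subunits Prkar1a, Prkar1b and Prkar2a differed by -0.40 (SE 0.21), -0.12 (SE 0.23) and -0.01 (SE 0.30) at 2 h. Of the 72 pathway probe sets, 3 were lower at 2 h at an unadjusted p under 0.05. They were X57986mRNA_s_at of Prkaca, rc_AA891881_at of Prkacb and M87854_at of Grk2, a share close to the 4.07% of all tested probe sets. At that level 2 pathway probe sets were higher, where 3.6% of all tested probe sets were. These higher probe sets were of Cngb1 (AF015728_s_at, 1.25, SE 0.54, adjusted p = 0.616) and of Grk5, another receptor kinase (0.97, SE 0.45, adjusted p = 0.637). AF015728_s_at read 25.7, 25.7 and 5.05 on the naive arrays, the last at the lowest level, and 47.2 and 26.6 at 2 h. Its trained arrays read 19.4 to 47.2. The 3 probe sets higher over trained times at an unadjusted p under 0.05 were of Cngb1, Cnga3 and Grk1. None of them passed the adjusted threshold. The other Cngb1 probe set, AJ224680_g_at, differed by -0.04, and Cnga3 read 5.05 to 25.5 on trained arrays and 5.05 to 5.07 on naive arrays. The Cnga3 probe set thus passed the filter on brightness through trained arrays alone. With its naive arrays at or next to the lowest level it could not come out clearly lower, so its direction is no result.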

How the data were processed

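The deposited table held 1 linear intensity per probe set and array for 8799 probe sets, of which 59 were controls; the sources used here do not name the authors' software, background correction or scaling. Each array was scaled to a 2% trimmed mean of 105 (the median over arrays), values under the pooled 20th percentile (5.05) were raised to it, and log2 was taken. Probe sets over the pooled 40th percentile (16.9) on at least 2 arrays were tested, which left 6220. A linear model over the 7 groups was fitted in R 4.3.3 by limma 3.58.1 (lmFit, eBayes with a variance trend), with Benjamini-Hochberg adjustment over all tested probe sets at 0.05, and the models were tested on simulated data. Genes were named through the platform annotation, updated by gene identifier; 308 probe sets carry several symbols, and the 2 of them that hold a member symbol were left out. The symbol rule reads no measured value, but these families, the lists and the rule for naming were chosen with earlier results of these data known. Full statistics were given for members with an unadjusted p under 0.05 in an F test or in trained against naive and, for each hour, for up to 5 members of smallest p, and for at least 3 in any comparison; 6 h of Gnao1 was added because all probe sets of a named gene are given. Marker lists of other cell types were counted only.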

Additional observations from a re-analysis of the deposited data

How the results depend on the processing

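The count of members past the adjusted threshold was recomputed under 28 other settings, 16 of which left out 1 array each. Of 250 such counts, 249 were 0, as in the report. The exception was 6 h against naive, whose range over left-out arrays was 0 to 1. The 1 came without 6 h replicate 3 and was Gnai1 (-2.00, adjusted p = 0.0158). Without 6 h replicate 2 the Gnai1 difference at 6 h was -0.98. After group means were removed, 12 of 43 same-numbered pairs of arrays correlated above 0.1 (range -0.20 to 0.19). Where both groups had 2 arrays, replicates 1 and 2 give the same value, and differently numbered pairs were not compared. Whether replicate numbers pair the arrays therefore cannot be told from these values. A fit with the replicate block gave a count of 0 members in every comparison. Of 29 named differences, 27 kept their sign under every setting that gave a value (27 or 28 each); the other 6 named results were p-values of F tests, which have no direction. The exceptions were Gng8 L35921_at at 12 h, which was -1.11 with the beta-actin ratio as the covariate, and Gna12 D85760_at at 24 h, which was 0.032 with Ttr as the covariate; the cause was not tested. Fitting the compared groups alone gave no F test. With 2 or 3 arrays in a group, the number of arrays limits the precision.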

Other observations

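The 10 member genes with no tested probe set were Adcy4, Adcy10, Gnat3, Gnb3, Pde1c, Pde3b, Pde5a, Pde7a, Rgs1 and Rgs18. Rgs18, an RGS protein of blood cells, and 1 of the 2 Pde5a probe sets were at the lowest level of 5.05 on all 16 arrays. Adcy10, the soluble adenylyl cyclase, reached 17.3 on 1 array at 2 h. Pde7a reached 17.7 on 1 array at 2 h, and Pde3b reached 16.4 at 12 h with no array at the lowest level. Gnat3, the taste alpha subunit, was above the lowest level on 4 of 16 arrays and reached 9.79.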
